A study of Mus musculus with 46 samples.

Results

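Gene expression of MC-38 cells grown in culture was compared with that of untreated baseline MC-38 tumors. MC-38 is a mouse carcinoma line derived from the colon of a C57BL/6 mouse. The comparison held 6 of the 46 samples of the series, which were 3 cultures labelled MC38_CellLine and 3 tumors labelled MC38_Baseline, chosen by these labels. Within it, the results concern the 9215 genes, of 48795 in the table, whose mean in the 3 cultures was at least 5 FPKM (sequenced fragments scaled by transcript length and by the total of the library). These genes are called the genes expressed in culture.

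Both groups carry the labels genotype WT, cell line MC38 and treatment none, and neither carries a time point. The series studied tumors after a PD-1 antibody or after deletion of its gene in the host, and none of these treatments was given to the 6 samples. According to the methods of the study, the tumors grew from MC-38 cells injected under the skin of the right flank of young adult female WT mice. The day on which baseline tumors were taken is not given in the sources used here. A tumor sample is bulk tissue, with carcinoma cells, immune cells, fibroblasts, vessels and adjacent tissue in unknown shares. Fewer cells of a type and less RNA per cell cannot be told apart in such samples, nor can carcinoma cells and host cells that express the same gene.

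Cells in culture lie in a thin layer of medium with abundant oxygen, glucose, amino acids and serum. In a tumor, the same cells depend on diffusion from vessels, touch matrix and neighbouring cells, and receive cytokines from immune cells. Interferons raise antigen presentation on MHC class I. Low oxygen stabilizes HIF-1, which raises genes of glycolysis and of pH control. Sterol-regulated factors of the SREBP family raise lipid synthesis when cells lack cholesterol or unsaturated fatty acids. Bone morphogenetic proteins, which are also present in serum, raise the ID genes through SMAD factors.

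The cultures were closely alike, with a lowest Pearson's r of 0.992 between any pair on the log2 scale over the tested genes, and the tumors were less so, with a lowest r of 0.954. The highest r between a culture and a tumor was 0.866. Number of reads per sample could not be derived from FPKM values, so precision here is the spread between samples. Nothing in the labels says that samples of a group came from separate cultures or animals, and p-values measure the spread between these samples only. The sample identifiers of the cultures and the tumors fall in separate runs, so any handling that differed between the runs and the change from culture to tumor cannot be told apart. Mitochondrial genes held 5.63% to 6.22% of the summed FPKM in culture, 4.58% and 4.90% in tumors 1 and 2, and 7.65% in tumor 3. Tumor 3 also had the lowest levels of leukocyte genes and the highest levels of Col1a1 and Col3a1, but not of Col1a2, as given in detail with the host cell markers.

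Defining genes of colon epithelium were near 0 in the cultured cells and at low levels in the bulk tumors. Mean FPKM in culture was 0.302 for the keratin Krt8, 0.121 for Krt18, 0.215 for the adhesion molecule Epcam, 0.014 for the E-cadherin gene Cdh1 and 0.0328 for the brush border gene Vil1, and Cdx2, a master regulator of intestinal identity, was listed at 0 in all 6 samples. Only 7 of 30 epithelial genes passed the filter for testing, and 2 of these had 5 FPKM or more in culture, among them the general junction adaptor Tjp1. Epcam, Cdh1 and Pkp3 were called higher in the tumors, at means of 0.873, 0.939 and 1.54 FPKM, and the epidermal keratin gene Krt14 was called higher as well (0.255 FPKM in culture and 21.5 in the tumors), while its partner Krt5 was listed at 0 in all 6 samples. Mesenchymal genes were among the most abundant, with Vim, the vimentin gene, at 971 FPKM and Twist1, a transcription factor of mesenchyme, at 37.8 FPKM in culture.

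Most genes expressed in culture kept a similar level in the tumors. Of the 9215, 8602 (93.3%) differed by less than 2-fold, with a median log2 fold change (tumors minus culture) of -0.10 against -0.04 for all tested genes. A gene was called when limma gave an adjusted p under 0.01 and the change was at least 2-fold. By this rule 300 of the 9215 (3.26%) were called higher in the tumors, against 12.1% of all 15217 tested genes, and 283 (3.07%) were called lower, against 3.75% of all tested genes. Protein-coding genes made up 288 of the 300, 231 of the 283 and 8733 of the 9215. Processed pseudogenes made up 26 of the 283 called lower and 1 of the 300 called higher. The remaining 6002 tested genes, under 5 FPKM in culture, held 1534 genes called higher and 288 called lower. The choice of genes by their level in culture sets part of this contrast, since a gene silent in culture can only rise. When the same threshold was put on the mean over all 6 samples, 648 of 9482 genes were called higher and 225 lower. Among the genes nearest to the threshold, Gas7 (4.9956 FPKM in culture) and B4galnt4 (4.9954 FPKM) were just under it, and Rgs17 (5.0004 FPKM) and Prkab2 (5.003 FPKM) just inside.

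**Figure D1:**
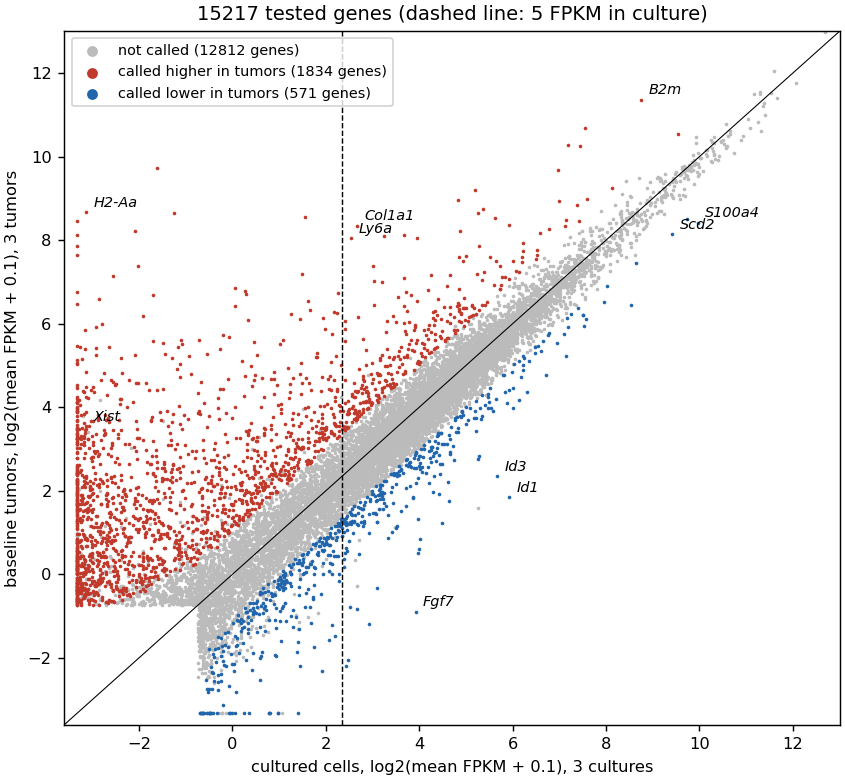
Mean level of each of 15217 tested genes in cultured MC-38 cells (horizontal axis) and in baseline tumors (vertical axis), both as log2(mean FPKM + 0.1) of 3 samples, with genes called higher in tumors in red and genes called lower in blue. Right of the dashed line at 5 FPKM in culture, genes lie close to the line of equal levels, and most of the 1834 genes called higher lie left of it.

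The 9215 genes held 98.0% of the summed FPKM in each culture and 94.9% to 95.8% in each tumor. The 10 named genes with the highest levels in culture were Eef1a1, which carries tRNA to the ribosome, the ribosomal protein genes Rplp0, Rpl41, Rplp1, Rps2 and Rpl19, Ppia, which encodes cyclophilin A, Fth1 of the iron store ferritin, and S100a6 and Lgals1, which encode a calcium-binding protein and the lectin galectin-1. None of the 10 changed by 2-fold. Eef1a1 was at 4294, 4305 and 4300 FPKM in the cultures and 3606, 3542 and 3219 FPKM in the tumors, and S100a6 at 1697, 1726 and 1718 against 1050, 961 and 1225 FPKM. The groups did not overlap for either gene, and 39.4% of the 50-base stretches of Eef1a1 occur in another gene. Lgals1 showed the smallest difference, with 1604, 1588 and 1638 FPKM in culture and 1685, 1659 and 1389 FPKM in the tumors (log2 fold change -0.03, SE 0.09, adjusted p 0.75). Among the 81 ribosomal protein genes 1 was called, Rps27rt, and 91.1% of its 50-base stretches occur in another gene. All 15 housekeeping genes were uncalled, with a median log2 fold change of -0.20.

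The strongest losses on going from culture to tumor included inhibitors of differentiation, a growth factor and transporters. Id1 and Id3 encode proteins that bind and block basic helix-loop-helix transcription factors and are direct targets of bone morphogenetic protein signaling. Id1 (chr2:152736251-152737410, GRCm38) was at 62.0, 60.4 and 60.3 FPKM in the cultures and at 3.63, 3.67 and 3.22 FPKM in the tumors, which was 17.4-fold lower (log2 fold change -4.08, SE 0.07, adjusted p 7.2e-08). Id3 (chr4:136143497-136145755) was at 52.5, 50.2 and 49.1 FPKM in culture and 4.47, 3.54 and 7.04 FPKM in the tumors (log2 fold change -3.37, SE 0.22, adjusted p 1.5e-05). For both genes every tumor was far below every culture, and the 3 tumors were within about the same low range. The other members of the family were not called. Id2 was at a mean of 10.8 FPKM in culture and 13.4 FPKM in the tumors (log2 fold change 0.26, adjusted p 0.28), and Id4, the most abundant of the family, at 131 and 118 FPKM (log2 fold change -0.17, adjusted p 0.27).

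After these values were seen, other genes of the bone morphogenetic protein response were read. They are therefore described gene by gene, with no count over the group. The ligand gene Bmp4 was also read and is not reported here. Atoh8, a transcription factor under SMAD control, fell from 4.64, 4.23 and 3.92 FPKM to 0.264, 0.560 and 0.169 FPKM, a log2 fold change of -3.44 (SE 0.32). Smad9, a SMAD of this pathway, had a log2 fold change of -2.34, Bambi, a decoy receptor, of -1.36, and Smad6, an inhibitory SMAD, of -1.14. The ligand gene Bmp2 was at 9.75, 9.72 and 9.47 FPKM in culture and at 1.69, 1.91 and 5.38 FPKM in the tumors (log2 fold change -1.85, SE 0.38, adjusted p 0.0047), with tumor 3 nearest to the cultures. Smad7, the inhibitory SMAD shared with the TGF-beta pathway, was at 10.7 and 12.3 FPKM (log2 fold change 0.18, adjusted p 0.23).

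Fgf7 (chr2:126034658-126091185), which encodes keratinocyte growth factor, a ligand made by mesenchyme, was lost almost entirely. It was at 13.98, 15.0 and 16.3 FPKM in the cultures and 0.381, 0.586 and 0.350 FPKM in the tumors (log2 fold change -4.84, SE 0.18, adjusted p 1.0e-06). Peg10, an imprinted gene derived from a retrotransposon, was at 7.68, 7.44 and 7.39 FPKM in culture against 0.369, 0.420 and 0.227 FPKM. Cd300lb, a receptor usually found on myeloid cells, was at 8.23, 8.57 and 8.64 FPKM in culture and 0.660, 0.756 and 0.657 FPKM in the tumors. In all of these the groups lay apart by more than 10-fold. The low level of Cd300lb stood beside macrophage marker genes whose summed level was 560 to 1254 FPKM in the tumors and 7.04 to 7.85 FPKM in culture.

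The remaining strongest losses were Tex13b, Sned1, Fbxo2, Slco4a1, Srgap3, Slc5a3, Ptchd1, Tspan5 and Nrn1, with log2 fold changes from -3.64 to -2.50. Slc5a3, the myo-inositol transporter that cells use to adjust to hypertonic medium, was at 24.4, 24.7 and 25.6 FPKM in culture and 3.05, 2.75 and 4.09 FPKM in the tumors. Of other genes of that response, read after this value was seen, its regulator Nfat5 (log2 fold change -1.33, SE 0.14) and the heat shock protein gene Hspa4l (-2.002, SE 0.10) were called lower, while the taurine transporter gene Slc6a6 (-0.35) and the aldose reductase gene Akr1b3 (-0.54) were not called. Slco4a1, an organic anion transporter, was at 23.4, 22.5 and 20.8 FPKM against 3.01, 2.06 and 1.70 FPKM. Sned1, a secreted matrix protein gene, was at 0.583, 1.15 and 2.49 FPKM against 15.5, 16.8 and 15.2 FPKM in culture. Zbed6 had the lowest log2 fold change of all, -4.88, but all of its 50-base stretches occur in another gene. It lies inside Zc3h11a, which was not called (73.8 FPKM in culture and 67.5 in the tumors), so the value of Zbed6 is uncertain.

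**Figure D2:**
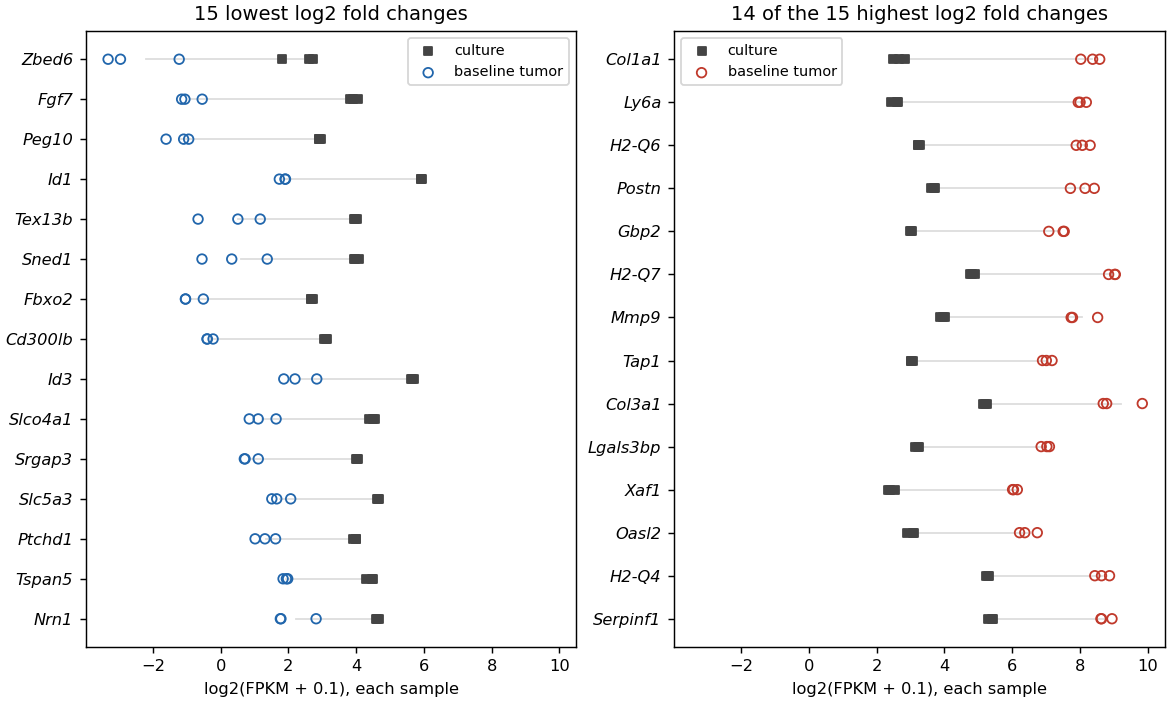
Level in each sample, as log2(FPKM + 0.1), of the 15 most lowered and 14 of the 15 most raised called genes that were expressed in culture and whose groups did not overlap. Filled squares are the 3 cultures and open circles the 3 baseline tumors, joined at the group means; Id1 fell from about 60 to about 3 FPKM and Col1a1 rose from 6.24 to 325 FPKM.

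Lipid synthesis genes were lower in the tumors as a group. Of 24 genes of cholesterol synthesis and uptake, 11 were called lower and none higher, and the median log2 fold change was -0.95 against -0.04 for all tested genes. Over all tested genes 3.75% were called lower. All 11 were among the 23 expressed in culture, against 3.07% called lower of all genes expressed in culture. The called genes span the pathway from mevalonate to sterol. Lss, which closes the sterol ring, was at 46.3, 46.8 and 45.4 FPKM in culture and 15.5, 15.1 and 16.8 FPKM in the tumors (log2 fold change -1.54, SE 0.06, adjusted p 1.0e-06). Idi1, which isomerizes the 5-carbon unit of the pathway, was at 72.0, 71.2 and 74.9 FPKM against 30.1, 23.2 and 26.1 FPKM, with 17.7% of its 50-base stretches in another gene. Insig1, the sterol sensor that holds SREBP in the endoplasmic reticulum, was at 73.6, 73.2 and 77.1 against 29.8, 25.2 and 33.4 FPKM. No culture overlapped any tumor for these genes. Hmgcs1, which acts early in the pathway, was also lower in every tumor than in every culture, without reaching 2-fold (log2 fold change -0.75). When all 46 samples shared 1 estimate of the spread, 4 of the 24 genes were called.

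Genes of fatty acid synthesis, read after the values were seen, were also called lower in part. Of 12 genes, 8 were called lower and none higher, a count that is no independent evidence since the genes were chosen with their values known. Elovl6, which elongates palmitate, was at 62.5, 63.6 and 65.3 FPKM in culture and 17.1, 13.6 and 16.4 FPKM in the tumors (log2 fold change -2.02, SE 0.09). Scd2, a stearoyl desaturase and one of the most abundant transcripts of the culture, was at 692, 697 and 663 against 273, 239 and 337 FPKM (log2 fold change -1.29, SE 0.12). Transcripts of acetyl-CoA supply and carboxylation were lower, with log2 fold changes of -1.73 for Acss2, -1.03 for Acly and -1.28 for Acaca. The fatty acid synthase gene Fasn was not called (log2 fold change -0.49, SE 0.12, adjusted p 0.012), nor was the regulator gene Srebf1 (-0.63).

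Few genes of cell division passed the test, and those that did were lower in the tumors. Of 30 genes of G2/M and mitosis, all expressed in culture, all 30 had negative log2 fold changes, against 60.9% of all genes expressed in culture, with a median of -0.58, and 4 were called lower, Mki67, Cenpe, Kif11 and Cenpf. Over all genes expressed in culture 3.07% were called lower. Mki67, which encodes the proliferation antigen Ki-67, was at 87.6, 84.8 and 94.3 FPKM in culture and 38.4, 42.6 and 36.3 FPKM in the tumors (log2 fold change -1.18, SE 0.07, adjusted p 1.2e-05). Other mitotic genes differed less, with log2 fold changes of -0.28 for Birc5, which encodes survivin, and -0.32 for Ube2c, which feeds the anaphase-promoting complex. Of 30 genes of G1/S and DNA replication, Pola1 was called lower (27.0 to 12.9 FPKM), and the median was -0.42. Pola1 was not called without tumor 3 (log2 fold change -0.88), with sample weights (-0.91), with the length trend removed (-0.86) or in the fit of all 46 samples. Of the 4 mitotic calls 1 was left without tumor 3, 2 without culture 3 and 0 in the fit of all 46 samples. The enzymes that make nucleotides had a median of -0.36 with none of 23 called, and none of 28 genes of ribosome biogenesis was called.

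Transcript length moved with these differences. When the 8733 protein-coding genes expressed in culture were ordered by exon length and cut into 10 equal bins, the median log2 fold change was -0.02 in the shortest bin and -0.33 in the longest (10195 bases or more), and Spearman's rho between length and log2 fold change across genes was -0.24. The longest bin held 67 genes called lower and 14 called higher, and the shortest 18 and 49. Mki67 (10061 bases), Cenpf (15433), Cenpe (8620) and Kif11 (7461) were all longer than the median gene (4652 bases). After the smooth trend with length was taken out of each sample, a step added after the data were seen, none of the 4 mitotic genes was called, the genes expressed in culture had 365 calls higher and 191 lower in place of 300 and 283, and 190 of the 283 lower calls remained. The 15 most lowered and 15 most raised genes were all called in that fit, and 9 of the 24 cholesterol genes were. The part of RNA fragmentation or other handling in this trend was not tested.

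**Figure D3:**
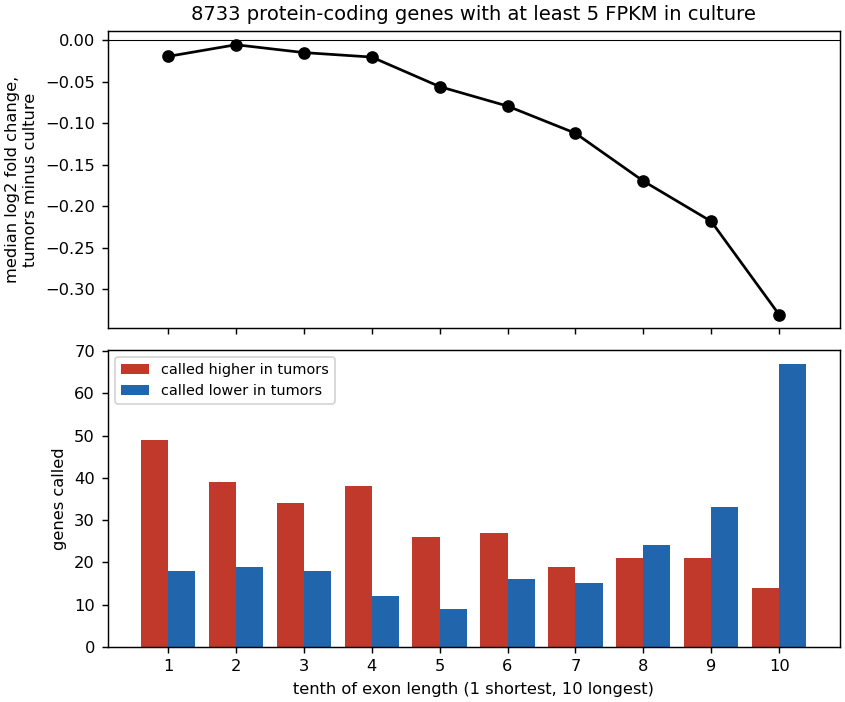
Median log2 fold change (upper panel) and number of genes called higher and lower in tumors (lower panel) for 10 equal bins of 8733 protein-coding genes expressed in culture, ordered by exon length from the shortest (1) to the longest (10). The median falls from -0.02 to -0.33, and calls lower in tumors outnumber calls higher in the 3 longest bins.

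Genes of MHC class I antigen presentation and the interferon response showed the broadest gain. Of 35 such genes, 33 were called higher and none lower in the tumors, with a median log2 fold change of 3.08, and 18 of the 20 already expressed in culture were called higher, with a median of 2.58. Over all tested genes 12.1% were called higher, and over all genes expressed in culture 3.26%. B2m, the light chain of MHC class I, was at 432, 427 and 434 FPKM in culture and 2621, 2757 and 2506 FPKM in the tumors, 2.61 higher on the log2 scale (SE 0.06, adjusted p 1.3e-07). Tap1, which pumps peptides into the endoplasmic reticulum, was at 8.36, 8.03 and 7.96 against 128, 144 and 119 FPKM (log2 fold change 3.99, SE 0.08). Every tumor was above every culture, and the tumors differed from each other by little against that distance.

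The class I heavy chain genes H2-K1 and H2-D1 rose from means of 186 and 145 FPKM to 1639 and 1250 FPKM. H2-Q7, H2-Q6 and H2-Q4, nonclassical class I genes, were among the 15 most raised genes expressed in culture, with log2 fold changes of 4.14, 4.84 and 3.38. Between 21.8% and 32.0% of their 50-base stretches occur in another gene, so the split of reads among them is uncertain. Gbp2, a guanylate-binding protein of cell-autonomous defense, was at 8.01, 7.83 and 8.17 against 185, 181 and 135 FPKM (log2 fold change 4.35, SE 0.12). Isg15, a ubiquitin-like modifier, was at 12.0, 10.4 and 12.1 against 80.4, 99.4 and 118 FPKM. In Gbp2 tumor 3 was the lowest tumor and in Isg15 the highest. Over the 18 genes called higher and expressed in culture, tumor 3 was the lowest of the tumors in 12 (66.7%) and the highest in 6 (33.3%). For all genes expressed in culture these shares were 41.7% and 39.2%.

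The 2 exceptions among the 20 were cytosolic RNA response genes. Ifit2 was at 9.05, 8.74 and 10.5 FPKM in culture and 11.2, 12.6 and 11.3 FPKM in the tumors (log2 fold change 0.31, adjusted p 0.023), and Ddx58, which encodes the RNA sensor RIG-I, at 22.2, 21.2 and 21.98 against 28.1, 29.8 and 37.3 FPKM (0.53, adjusted p 0.0034). Others of the gained genes, Ly6a, Xaf1 and Lgals3bp, are also known interferon targets. Oasl2, another of the most raised genes, is already counted in the list. Ly6a, the surface antigen Sca-1, was at 5.91, 5.23 and 6.06 FPKM in culture and 247, 291 and 256 FPKM in the tumors, which was 46.2-fold higher. For Ly6a, 19% of the 50-base stretches occur in another gene. Host leukocytes and fibroblasts express MHC class I and interferon targets too. The summed level of 6 leukocyte genes was 0.418 to 0.686 FPKM in culture and 214, 229 and 96.4 FPKM in tumors 1, 2 and 3, and the part of these cells in the gain was not tested.

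The promoters of these genes were read for the interferon-stimulated response element, a site of the interferon response, searched as GAAA, any 2 bases and GAAA on either strand in the 250 bases before the transcription start (RefSeq, GRCm38.p6). It was present in 12 of the 31 listed genes with a promoter in the table (38.7%), in 3.46% of 27025 genes and in 3.03% of 7150 genes expressed in culture. A match is a description of the letters and not a bound site. The promoters of Gbp2 (chr3:142620413-142620662, plus strand) and Isg15 (chr4:156200819-156201068, minus strand) are shown because both genes rose more than 8-fold, with the matches in capitals. Gbp2 has 1 match and Isg15 has 3 that overlap.
Gbp2: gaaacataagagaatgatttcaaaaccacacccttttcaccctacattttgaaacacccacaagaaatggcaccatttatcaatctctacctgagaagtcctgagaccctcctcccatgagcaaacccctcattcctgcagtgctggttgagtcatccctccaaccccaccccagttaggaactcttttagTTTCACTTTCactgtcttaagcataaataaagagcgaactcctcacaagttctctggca
Isg15: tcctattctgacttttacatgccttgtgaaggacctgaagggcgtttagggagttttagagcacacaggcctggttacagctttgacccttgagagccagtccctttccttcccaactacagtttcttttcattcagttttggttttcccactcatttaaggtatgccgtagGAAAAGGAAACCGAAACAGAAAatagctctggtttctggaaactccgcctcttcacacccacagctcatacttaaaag

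Some genes of the response to low oxygen rose, and most genes of the list were not called. Of 30 genes of glycolysis and hypoxia, 8 were called higher and none lower, with a median log2 fold change of 0.35. Over all tested genes 12.1% were called higher. Of the 28 expressed in culture 6 were called higher, against 3.26% of all genes expressed in culture. The list also held 2 genes under 0.5 FPKM in culture, a class in which 67.8% of tested genes were called higher. Ndrg1, a stress gene induced by low oxygen, was at 17.9, 19.8 and 16.7 FPKM in culture and 108, 97.6 and 129 FPKM in the tumors (log2 fold change 2.61, SE 0.11, adjusted p 1.6e-06). Car9, the surface carbonic anhydrase that exports acid, was at 12.3, 14.3 and 11.8 against 55.4, 47.2 and 65.8 FPKM (2.11, SE 0.13). Every tumor exceeded every culture for both. Ero1l, an oxidase of disulfide formation, P4ha2, a collagen prolyl hydroxylase, Pfkfb3, a switch of glycolytic flux, and Ankrd37 rose by 1.40, 1.27, 1.16 and 1.115 on the log2 scale. The enzymes of the glycolytic core were abundant and close to their culture level, with log2 fold changes of -0.33 for Pkm, -0.29 for Eno1, -0.15 for Ldha and 0.15 for Gapdh. For Pkm and Eno1, 25.8% and 26% of the 50-base stretches occur in another gene. The angiogenic factor gene Vegfa was at 64.9, 68.5 and 64.2 FPKM in culture and 98.6, 96.9 and 213 FPKM in the tumors, higher in each tumor but not called (adjusted p 0.022), and tumor 3 stood far above the others. In the fit of all 46 samples 4 of the 30 were called.

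The core of the hypoxia response element, ACGTG on either strand, was present in the 250 bases before the start of 18 of the 27 listed genes in the promoter table (66.7%), of 27.3% of the genes expressed in culture and of 18.5% of all 27025 genes. This short motif includes a CG pair and is more frequent in CG-rich promoters. The sterol regulatory element was searched in the same promoters. It was present in 0 of 16 listed cholesterol genes with a promoter. It was present in 3 of 7150 genes expressed in culture and 22 of 27025 genes. A match this rare is seldom found in any list, so its absence decides nothing. The promoters of Car9 (chr4:43506776-43507025, plus strand) and Ankrd37 (chr8:45999851-46000100, minus strand) are shown as called genes that hold the hypoxia core, with the matches in capitals.
Car9: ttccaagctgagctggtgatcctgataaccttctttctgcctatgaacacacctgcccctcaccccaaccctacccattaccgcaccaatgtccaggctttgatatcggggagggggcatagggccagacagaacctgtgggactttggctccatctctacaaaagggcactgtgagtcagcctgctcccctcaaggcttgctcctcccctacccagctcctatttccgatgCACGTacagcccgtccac
Ankrd37: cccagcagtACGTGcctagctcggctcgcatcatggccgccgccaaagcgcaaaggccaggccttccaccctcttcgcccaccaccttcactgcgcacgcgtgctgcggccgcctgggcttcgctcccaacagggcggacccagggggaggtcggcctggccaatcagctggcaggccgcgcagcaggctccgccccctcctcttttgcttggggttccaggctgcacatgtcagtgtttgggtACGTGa

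**Figure D4:**
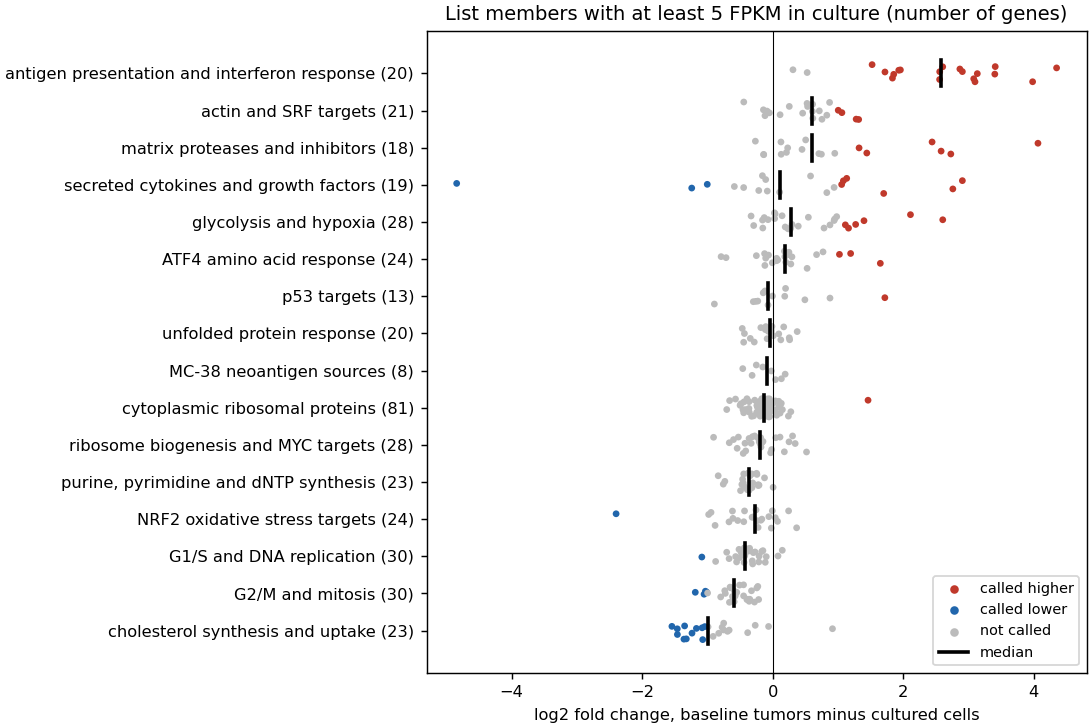
Log2 fold change (baseline tumors minus cultured cells) of each list member with at least 5 FPKM in culture, 1 point per gene, for 16 gene lists with the number of genes in brackets and the median as a black bar. Called genes are red (higher) or blue (lower); the interferon list lies to the right with a median of 2.58, the cholesterol list to the left with a median of -0.99, and most other lists lie near 0.

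Actin cytoskeleton genes rose in part. Of 25 tested, 7 were called higher and none lower, against 12.1% and 3.75% of all tested genes. Of the 21 expressed in culture 4 were called higher, against 3.26% of all genes expressed in culture. Actg1, gamma actin, was at 757, 763 and 710 FPKM in culture and 1617, 1539 and 1338 FPKM in the tumors (log2 fold change 1.01, SE 0.08), and Tagln2, Cnn2 and Zyx, expressed in culture, rose by 1.32, 1.28 and 1.06. Acta2, Tagln and Myl9, markers of smooth muscle and myofibroblasts, were under 0.5 FPKM in culture and at 28.3, 5.15 and 13.5 FPKM in the tumors. Tmsb4x, which encodes the actin-binding peptide thymosin beta-4 and was picked after its values were seen, was at 171, 169 and 178 FPKM against 1320, 1241 and 1123 FPKM. Of 19 integrin and focal adhesion genes, 5 were called higher and 1 lower, with Itga5, the fibronectin receptor chain, at 20.4, 20.8 and 19.4 against 52.8, 59.2 and 49.7 FPKM. Of the 16 expressed in culture 3 were called higher and 1 lower. The caveolin gene Cav2 was the gene called lower (log2 fold change -1.01), a call at the 2-fold edge that was lost in 7 other fits, among them those without tumor 2 (-0.96), tumor 3 (-0.99) or culture 3 (-0.98). Cav1 had a log2 fold change of -0.84 without a call.

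Several matrix genes were among the 15 most raised, while Sned1 was among the 15 most lowered. Col1a1, a chain of type I collagen, was at 6.23, 6.99 and 5.48 FPKM in culture and 260, 331 and 383 FPKM in the tumors, 52.0-fold higher (log2 fold change 5.67, SE 0.15). Its partner Col1a2 was at 0.943 FPKM in culture, below the threshold of expression used here, and at 80.0, 110 and 65.8 FPKM in the tumors, where tumor 3 was the lowest. Col3a1 (36.6 to 589 FPKM), Postn, the matrix protein periostin (12.6 to 279 FPKM), and Serpinf1, an inhibitor of vessel growth (41.4 to 427 FPKM), rose likewise. Of 21 matrix proteases and inhibitors, 9 were called higher and none lower, against 12.1% and 3.75% of all tested genes. Of the 18 expressed in culture 6 were called higher, against 3.26% of all genes expressed in culture. Mmp9, a gelatinase, was at 15.3, 16.1 and 14.5 FPKM in culture and 219, 213 and 367 FPKM in the tumors, and Mmp13, a collagenase, at 0.178 and 23.8 FPKM on average. Plat, tissue plasminogen activator, went from 15.5 to 93.3 FPKM and Plau, urokinase, from 0.276 to 15.0 FPKM. Mmp3 was at 6.40 and 6.23 FPKM in tumors 1 and 2, below the cultures at 8.27 to 8.85, and at 41.0 FPKM in tumor 3. The summed level of 10 fibroblast genes was 108 to 111 FPKM in culture and 1069, 1214 and 1860 FPKM in tumors 1, 2 and 3. Of these genes Pdgfra was lower in the tumors (37.0 to 22.2 FPKM, not called). The part of host fibroblasts in these gains was not tested.

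Secreted factors were called in both directions. Of 36 tested, 14 were called higher and 4 lower, and of the 19 expressed in culture, 6 were called higher and 3 lower. Over all tested genes 12.1% were called higher and 3.75% lower, and over all genes expressed in culture 3.26% and 3.07%. The 4 lower calls among the secreted factors became 1 in the fit of all 46 samples, where Spp1 was not called. They became 3 after centring on the genes expressed in culture and 2 with a pseudocount of 1. Csf1, which recruits and sustains macrophages, was at 154, 156 and 144 FPKM in culture and 74.5, 76.8 and 75.1 FPKM in the tumors (log2 fold change -1.001, SE 0.05, adjusted p 4.1e-06). This call is at the 2-fold edge. Spp1, osteopontin, was at 399, 393 and 409 against 127, 164 and 235 FPKM. Ereg, an EGF receptor ligand, fell from 4.81 to 2.14 FPKM, and Fgf7 is described above. Ccl2, which recruits monocytes, and Ccl7 were not called, at log2 fold changes of -0.44 and -0.08, and Mif was at 722 and 671 FPKM. Gains in genes expressed in culture were seen for Cxcl10 (18.9 to 142 FPKM), Ccl5 (9.81 to 66.6 FPKM), Vegfc (9.54 to 31.4 FPKM), Pdgfa (29.6 to 65.2 FPKM), Cx3cl1 (7.34 to 15.7 FPKM) and Tgfb1 (20.6 to 43.2 FPKM). Il33, an alarmin, was at 4.81, 3.27 and 36.2 FPKM in the tumors and 0.207 to 0.299 FPKM in culture, so most of its mean came from tumor 3.

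A list of surface genes was drawn up for restraint of immunity, though not every member has only that role. Of its 18 tested genes, 11 were called higher and none lower, against 12.1% and 3.75% of all tested genes. Among those called was Cd86 (0 FPKM in culture and 5.34 in the tumors), which encodes a costimulatory ligand of T cells. Cd274, which encodes PD-L1, was at 1.33, 1.63 and 1.55 FPKM in culture and 12.3, 12.7 and 8.46 FPKM in the tumors (log2 fold change 2.79, SE 0.17). Of the 9 expressed in culture, Cd276 (7.68 to 27.5 FPKM) and Lgals9 (12.99 to 53.5 FPKM) were called. Over all genes expressed in culture 3.26% were called higher. Cd47, the signal against uptake by macrophages, was at 47.2, 48.1 and 48.0 against 75.2, 71.9 and 71.8 FPKM, higher in every tumor but by less than 2-fold (log2 fold change 0.61). Raet1e, a ligand of the activating receptor NKG2D, was at 15.6 FPKM in culture and 9.00 FPKM in the tumors (not called), with 44.7% of its 50-base stretches in another gene.

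Mesenchymal genes were called in both directions. Of 20 genes, 4 were called higher and 3 lower, against 12.1% and 3.75% of all tested genes. Of the 18 expressed in culture 2 were called higher and 3 lower, against 3.26% and 3.07% of all genes expressed in culture. S100a4, among the most abundant transcripts in culture, was at 1001, 983 and 1004 FPKM and in the tumors at 274, 274 and 477 FPKM (log2 fold change -1.60, SE 0.20, adjusted p 0.00041), though 47.4% of its 50-base stretches occur in another gene. Prrx2, a mesenchymal homeobox gene, was at 42.5, 38.5 and 39.4 against 8.78, 10.4 and 19.8 FPKM, and tumor 3 was again nearest to the cultures. Tnc, tenascin-C, rose from 12.7 to 85.8 FPKM and Sparc from 280 to 611 FPKM. Vim, Cdh2, Twist1 and Zeb1 were not called. Genes that carry known neoantigens of MC-38 were all within 2-fold of their culture level, and none of 8 was called, with log2 fold changes from -0.46 for Cpne1 to 0.19 for Adpgk. For Cpne1, 74.3% of its 50-base stretches occur in another gene.

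Calls in the stress lists stand beside 12.1% called higher and 3.75% called lower over all tested genes. For the genes expressed in culture these shares were 3.26% and 3.07%. None of 20 genes of the unfolded protein response was called, with a median of -0.04, and of 25 oxidative stress genes under NRF2 1 was, Gsta4, a glutathione transferase, at 11.2, 10.6 and 11.8 FPKM in culture and 1.72, 2.51 and 1.98 FPKM in the tumors. Of 25 genes of the ATF4 amino acid response 4 were called higher, among them Nupr1 (11.6 to 37.6 FPKM), Atf5 (36.2 to 83.2 FPKM) and Trib3 (32.7 to 66.7 FPKM), and 3 of the 4 were expressed in culture. None of the 4 was called in the fit of all 46 samples. The serine synthesis list had 1 call, Gcat, lower, which was also lost in that fit, and 46.4% of the 50-base stretches of Gcat occur in another gene. Of 21 p53 targets 6 were called higher. The cell cycle inhibitor Cdkn1a was the 1 of these expressed in culture, at 13.6, 14.3 and 12.9 FPKM against 50.5, 43.9 and 41.3 FPKM (log2 fold change 1.72, SE 0.08), while Mdm2 (-0.07) and Ccng1 (-0.26) were not called. Of 23 YAP/TAZ targets, 4 were called higher, none of them expressed in culture. The 2 called lower were Ptgs2, the inducible cyclooxygenase (8.21 to 2.68 FPKM), and Crim1. Of 20 immediate early genes 4 were called higher, none of them expressed in culture. Of 20 heat shock genes 2 were called higher, none of them among the 16 expressed in culture. The median of the 20 was -0.38, and 14 had negative log2 fold changes.

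Genes nearly silent in culture included many that are typical of immune cells. The 10 largest gains among genes under 0.5 FPKM in culture were H2-Aa, H2-Eb1, H2-Ab1 and Cd74 of MHC class II presentation, the complement genes C1qa, C1qb and C1qc of macrophages, the protease gene Ctss, and the signaling adaptors Tyrobp and Fcer1g. C1qa was listed at 0 in every culture and was at 325, 355 and 163 FPKM in the tumors. H2-Aa was at 454, 546 and 215 FPKM there. In both, tumor 3 was below the others by more than 1.5-fold. Of the 1041 genes called higher from under 0.5 FPKM, tumor 3 was the lowest tumor in 671 (64.5%) and the highest in 244 (23.4%). Of the 300 called higher and expressed in culture, it was the lowest in 109 (36.3%) and the highest in 158 (52.7%). Over all 9215 genes expressed in culture, tumor 3 was the lowest in 41.7% and the highest in 39.2%.

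By marker lists, the tumors held macrophage genes at summed levels of 1232, 1254 and 560 FPKM, T cell genes at 26.4, 22.2 and 5.83 FPKM and endothelial genes at 41.1, 51.5 and 48.0 FPKM. Among macrophage genes, C1qb was also listed at 0 in all cultures, while Cd14 was not called (4.49 and 5.94 FPKM). Skeletal muscle genes summed to 125, 56.6 and 3.30 FPKM and adipocyte genes to 82.4, 1.23 and 0.0173 FPKM in tumors 1, 2 and 3, so the levels of these genes of adjacent tissue differed among the tumors. Red blood cell genes were at 19.0, 15.7 and 6.37 FPKM. Neutrophil, B cell and plasma cell genes stayed at a summed level of 4.77 FPKM or less. Xist, which silences an X chromosome in female cells, was at 0.0142, 0.0132 and 0.0148 FPKM in culture and 12.6, 13.5 and 8.66 FPKM in the tumors, and the Y-linked genes Ddx3y, Eif2s3y and Uty were listed at 0 in all 6 samples.

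**Figure D5:**
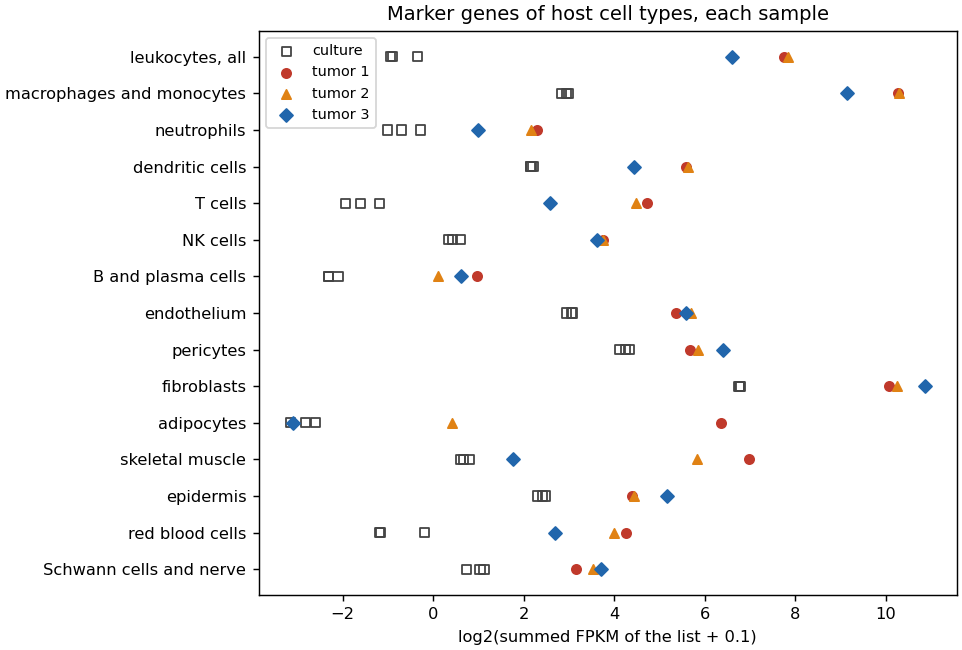
Summed FPKM, as log2(sum + 0.1), of marker gene lists of host cell types in each of the 3 cultures (open squares) and in tumors 1, 2 and 3 (filled symbols). Tumor 3 has the lowest sums for leukocytes, macrophages and T cells and the highest for fibroblasts, and adipocyte genes are at 82.4 FPKM in tumor 1 and near 0 in tumor 3.

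The 5 isotype control tumors taken after 2 doses (day 8 of treatment) give the levels of the same genes in tumors of WT mice that received an isotype control antibody. They are shown beside the other groups with no test, since a comparison of either tumor group with culture rests on the same 3 cultures. Id1 ranged from 3.28 to 4.90 FPKM with a median of 4.26, beside a median of 3.63 in baseline tumors and 60.4 in culture. Fgf7 ranged from 0.478 to 1.09 FPKM beside 0.381 and 15.0, and Id3 from 7.45 to 10.3 beside 4.47 and 50.2. The highest of the baseline tumors for Id3, 7.04 FPKM, was below all 5. Tap1 ranged from 78.2 to 141 FPKM with a median of 115, beside 128 and 8.03, and Gbp2 from 49.9 to 176 with a median of 82.3, beside 181 and 8.01. Col1a1 ranged from 321 to 614 FPKM beside 331 and 6.23. For each of these 6 genes the isotype control tumors lay on the same side of the cultures as the baseline tumors.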

How the data were processed

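RNA-seq values of 3 cultures of MC-38 cells and 3 baseline tumors were analysed. Per the labels and the methods of the study, total RNA was prepared with a stranded kit that removes ribosomal RNA and read as 50-base paired ends, and the authors used Omicsoft Array Studio to map them to Mouse B38 and quantify Ensembl gene models. The deposited values are FPKM for 48795 genes. Counts were not used here, so the depth of each sample is unknown. Because FPKM divides by the total, a gain in abundant genes lowers all others slightly. Symbols, positions (GRCm38) and exon lengths (union of the exons of a gene) came from GENCODE M21 for 99.3% of the identifiers.

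The 15217 genes that averaged 0.5 FPKM or more in a group were tested on log2(FPKM + 0.1) with limma 3.58.1 in R 4.3.3 (lmFit, eBayes with a trend), which understates the change of low genes. P-values were adjusted by the Benjamini-Hochberg method over all tested genes, and calls needed an adjusted p under 0.01 and 2-fold. The genes expressed in culture and the gene lists were chosen with earlier results of these data known. Named genes were the 15 lowest and 15 highest log2 fold changes among called genes expressed in culture with groups that did not overlap (predicted and noncoding symbols left out), the 10 highest in culture, the 10 highest gains from under 0.5 FPKM to at least 5, and for each list the 2 lowest and 2 highest together with its defining members. Others, among them the bone morphogenetic protein, fatty acid and osmotic genes, Tmsb4x and further list members, were named after their values were seen, as were the motifs and the promoters printed. On simulated data with 200 changed genes, the fit recovered 47% of log2 changes of 1 (14098 genes tested), 95.5% of 1.5 (14088) and 97.5% of 2 (14099), with 1 or 2 false calls. A log2 change of 1 lies at the 2-fold limit itself, so many such changes are missed at any precision. The simulation used culture means and the same spread for both groups, whereas the real tumors varied more than the cultures. Alternatives were another pseudocount, filter, scaling, centring and spread, sample weights, a fit of all 46 samples, the replicate number as a block, each sample left out in turn, other thresholds in culture, and removal of the trend with exon length, which was added after seeing the data. No sample was left out. Results for some named genes are not reported here. Shared sequence was measured by cutting all transcripts into overlapping 50-base pieces and counting those that another gene also held. Python 3.11.15, numpy 2.4.6, pandas 2.3.3 and matplotlib 3.10.9 were used.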

Additional observations from a re-analysis of the deposited data

Results flagged for a closer look

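With 3 samples a group, single outlying samples were not looked for among cultures or baseline tumors. In the 5 isotype control tumors after 2 doses, 3 of the 20 genes read there had 1 tumor far above the other 4 by Dixon's rule. They were Peg10 at 4.62 FPKM, Tex13b at 11.2 FPKM and Fbxo2 at 1.21 FPKM, against group medians of 0.730, 2.76 and 0.649 FPKM. Chance alone flags about 1 in 20 groups.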

How the results depend on the processing

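Of 100 named genes that were called, 84 kept their call and direction under all 17 other fits and none reversed, and the 30 genes with the lowest and highest log2 fold changes kept theirs in every fit. Over all genes 571 were called lower, which became 261 with all 46 samples in 1 fit, 297 with a pseudocount of 1 and 361 to 673 when a sample was left out, with 361 without culture 3. For the genes expressed in culture, the all-sample fit called 211 higher and 127 lower. It called 4 cholesterol genes lower in place of 11 and 4 hypoxia genes higher in place of 8, and its spread includes all groups. Without baseline tumor 3, 280 of the genes expressed in culture were called higher and 290 lower, and 1 mitotic gene in place of 4. With thresholds of 1 and 20 FPKM in culture, 635 and 103 were called higher and 505 and 110 lower, and 648 were called higher with the threshold on the mean of 6 samples. Their median log2 fold change of -0.10 became -0.066 after centring, -0.074 after median-of-ratios scaling and -0.0031 without the trend with length. The replicate number as a block called 1722 genes higher and 514 lower in place of 1834 and 571, and 300 and 287 of the genes expressed in culture. Samples with the same number did not deviate together (correlations of -0.009, 0.0488 and 0.0265), so the pairing has no basis in these data. Without counts, low values carry an unknown error.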

Other observations

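Some genes usually restricted to immune cells had a level in cultured MC-38 cells, picked here after their values were seen. Cd72, a coreceptor of B cells, had a mean of 5.20 FPKM in culture and 58.4 FPKM in the tumors (log2 fold change 3.31). Cd300lb, at 8.48 FPKM in culture, fell to 0.691 FPKM, while Cd14 was at 4.49 and 5.94 FPKM. The leukocyte gene Ptprc had a mean of 0.0026 FPKM in culture.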
